A study of Homo sapiens with 30 samples.

Results

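IMR32 is an established neuroblastoma cell line with amplified MYCN. In the comparison described here, IMR32 cells were transfected with lipofectamine 2000 and the antisense oligonucleotide ASO2, whose target is the long non-coding RNA NESPR, or with the negative control oligonucleotide NCA, each at 100 nM. The members were the 4 ASO2 libraries and the 4 NCA libraries, which are 8 of the 30 RNA sequencing libraries of the series. They were chosen by their titles. The series also holds 4 IMR32 libraries with ASO1, a different oligonucleotide against NESPR, and 3 libraries per group with ASO2, ASO10 or NCA in the lines NGP and SK-N-BE(2)c. The series concerns NESPR in the stress and death of adrenergic neuroblastoma cells, and the comparison asks which genes differ with ASO2. All groups had received an oligonucleotide and transfection reagent, and no untransfected cells were compared. The time from transfection to harvest is not given in the sources used here. Nothing in the labels says that replicates came from separate cultures, so p-values measure the spread between these libraries, which may be technical.

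An antisense oligonucleotide pairs with its target RNA inside the cell and, when it has a DNA stretch, leads RNase H to cut that RNA. Transfected nucleic acids can also set off stress and immune programmes that do not depend on the target. p53 is a transcription factor that is held low by MDM2 and, when freed, switches on genes for cell cycle arrest, repair and death. Neuroblastoma cells resemble immature sympathetic neurons, and their adrenergic identity rests on a set of transcription factors that includes HAND2 and GATA3.

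Values are normalized counts, that is, reads per gene divided by a size factor for each library. Recovered reads per library ran from 9393587 to 13932379 over the 12 IMR32 libraries. Mitochondrial genes took 4.46% to 5.87% of reads. The first ASO2 replicate was the least like its group (chi-square per degree of freedom 3.87 to 7.33 against each of the other 3 ASO2 libraries, beside 1.65 to 2.36 among those 3). Without it 5150 genes were called in place of 5606. All 10 adrenergic markers were detected (sum 27989.5 to 29901 with ASO2 and 30253 to 31662 with NCA, with 1 called higher and 3 lower). The 6 immune markers summed to 16.7 to 18.8 with ASO2 and 7.69 to 9.44 with NCA, none had a mean of 10, and CD3E was at 0 in all 8 libraries. The 10 mesenchymal markers summed to 2152 to 2439 and 2515 to 2804 (1 higher, 1 lower, PRRX1 at 0), and the 6 Schwann or glial markers to 76.6 to 88.5 and 63.7 to 80.2 (none called). The 6 fibroblast markers summed to 1198 to 1309.8 and 1024 to 1118 (1 higher), the 4 endothelial markers to 45.8 to 63.1 and 39.5 to 61.3 and the 5 epithelial markers to 22.8 to 36.6 and 26 to 37.3 (none called, 1 epithelial marker at 0). The part of these marker differences in the results was not tested. In bulk RNA, fewer cells of a type and less RNA per cell cannot be told apart.

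Of 17245 genes with a mean of at least 10 in the 8 libraries, 5606 differed between ASO2 and NCA at a Benjamini-Hochberg adjusted p under 0.05 from limma, which is 32.5% (3047 higher, 17.7%, and 2559 lower, 14.8%). The changes were mostly small. Of the called genes, 78.3% changed by under 0.5 on the log2 scale, and 194 genes (1.12%) changed by 1 or more (149 higher, 0.864%, and 45 lower, 0.261%). In 30.5% of genes all ASO2 libraries lay above every NCA library, or all lay below every NCA library. LINC00682 (ENSG00000245870), a long intergenic RNA, had normalized counts of 1655, 1365, 1389.6 and 1447 under ASO2 and 2798, 2557, 2489.8 and 2514 under NCA, with no overlap between the groups. Its log2 fold change on the log2(value + 1) scale was -0.82 (standard error 0.0607, limma adjusted p 1.20e-08). NESPR was not matched by name to a gene of the table, so its own level is not reported here.

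Among the largest rises were genes of several kinds. NECTIN4, a cell adhesion protein and p53 target, had normalized counts of 109, 118, 122 and 130.3 under ASO2 and 13, 14.8, 22 and 14.7 under NCA. Every ASO2 library lay several times above every NCA library. Its log2 fold change was 2.84 (standard error 0.169, limma adjusted p 9.28e-10), and with ASO1 it was 0.14. CYP4F3, a fatty acid hydroxylase, rose by 2.68 and PYGM, the muscle glycogen phosphorylase, by 2.13. FERMT3, an integrin activator, rose by 1.44, and PPL, which encodes periplakin, by 1.38. Among the largest falls, FUT1, a fucosyltransferase, had normalized counts of 50.9, 73.4, 96.1 and 36.6 under ASO2 and 188, 179, 138 and 161 under NCA, a log2 fold change of -1.44. TRANK1 changed by -1.22, the RNA-binding protein gene SAMD4A by -1.07, the bicarbonate transporter gene SLC4A5 by -0.95 and the phosphatase gene PPM1M by -0.87.

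Most p53 target genes rose. Of 45 tested p53 target genes, 35 were called higher and 1 lower, beside 17.7% and 14.8% of all genes, with a median log2 fold change of 0.42 beside 0.00 over all genes tested. MDM2, which marks p53 for degradation and is itself induced by it, had normalized counts of 5262, 5396, 5656 and 5659 under ASO2 and 2981, 2911, 2889.5 and 2924 under NCA. The groups were far apart and each varied little. The log2 fold change was 0.91 (standard error 0.0435, limma adjusted p 6.22e-11). CDKN1A, the cyclin-dependent kinase inhibitor p21, was at 1038, 1309.8, 1345 and 1442 under ASO2 and 580.5, 571, 661 and 652 under NCA. ASO2 replicate 1 was the lowest of the ASO2 libraries and still above all NCA libraries. Its log2 fold change was 1.05 (limma adjusted p 1.83e-08).

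Targets that act in cell death rose beside those that act in arrest. BBC3, which encodes the BCL2 antagonist PUMA, was at 139, 182, 173 and 171 under ASO2 and 68.4, 85.1, 69.2 and 67.1 under NCA (log2 fold change 1.19, limma adjusted p 2.05e-06). FAS, a death receptor, was at 123, 129, 119 and 115 under ASO2 and 48.4, 58, 62.6 and 62.5 under NCA (log2 fold change 1.06). No ASO2 library overlapped the NCA libraries for either gene. APAF1, the scaffold that activates caspase 9, rose by 0.45, and TNFRSF10B, the TRAIL receptor DR5, by 0.26. PLK2, a polo-like kinase, rose by 1.61 and FDXR, ferredoxin reductase of mitochondria, by 1.29. GDF15, a secreted stress cytokine, was at 47.4, 60.3, 70.1 and 61.7 under ASO2 and 17.7, 25.9, 15.4 and 14.7 under NCA (log2 fold change 1.67). SERTAD1 rose by 1.27. SPATA18, the 1 target called lower and chosen here after its values were seen, changed by -0.43 and was not called without NCA replicate 2 (-0.39). Values of 11 of these p53 genes and of the regulator MDM4 are plotted by library.

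**Figure D1:**
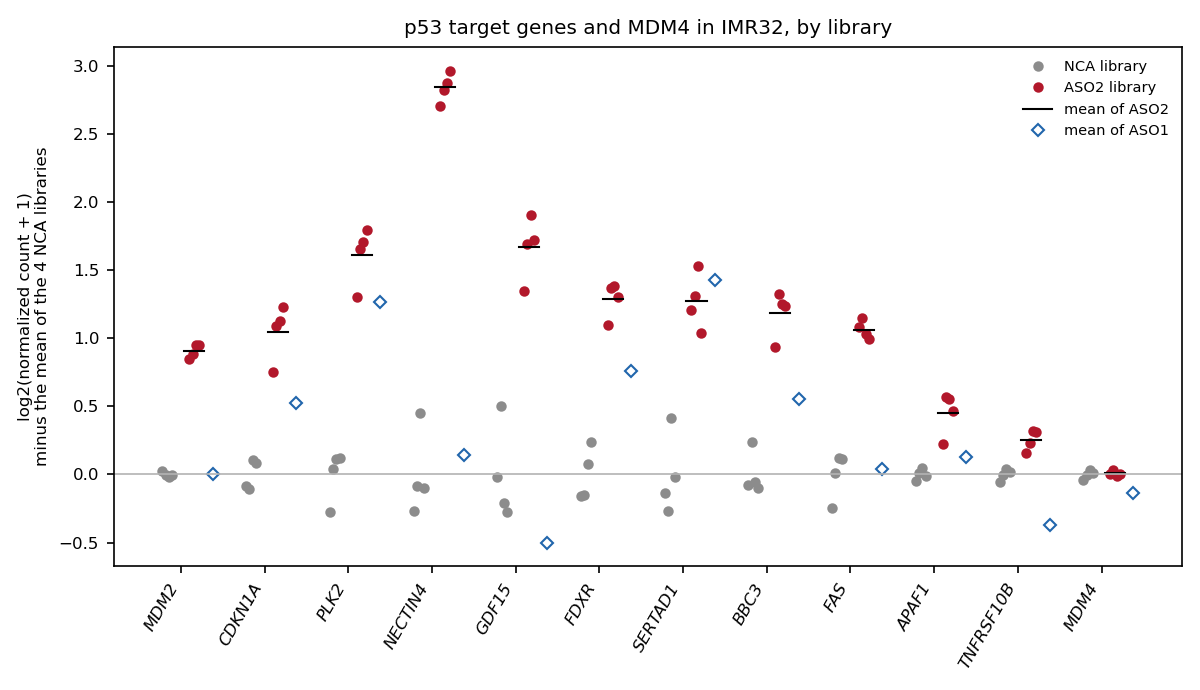
Each point is 1 library, as log2(normalized count + 1) minus the mean of the 4 NCA libraries (y axis), for p53 targets and the regulator MDM4 (x axis); black bars are ASO2 means and open diamonds ASO1 means. The ASO2 libraries of NECTIN4 lie highest (mean 2.84), and those of MDM4 lie at the NCA level (mean 0.01).

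Of 24 tested regulators of p53, 9 were called higher and 2 lower (median 0.12). MDM4, a relative of MDM2 that inhibits p53, was at 4922 ± 68.6 under ASO2 and 4896 ± 101 under NCA, a difference within the replicate spread (SD, n = 4; log2 fold change 0.01, limma adjusted p 0.901). The acetyltransferase gene EP300 rose by 0.41, the p53-binding protein gene TP53BP2 by 0.44 and the deacetylase gene SIRT1 by 0.39.

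In the BCL2 family, which sets the threshold for mitochondrial cell death, 10 of 17 tested genes were called higher and 3 lower (median 0.31). Rises included both killers and a guardian. BMF rose by 0.47 and BNIP3 by 0.58, and MCL1, which protects cells, rose by 0.25. BCL2, which also protects cells, was lower at 949 ± 95.3 under ASO2 and 1159.7 ± 30.7 under NCA (SD, n = 4; log2 fold change -0.29). HRK, a death gene of neurons, was lower too (-0.68). Among death receptors and caspases, 6 of 18 were called higher and 1 lower (38.9%, beside 32.5% of all genes). CFLAR, which blocks caspase 8, was at 9.73 ± 2.34 under ASO2 and 18.3 ± 5.49 under NCA (SD, n = 4; log2 fold change -0.83), a call lost without ASO2 replicate 4 (-0.75), NCA replicate 1 (-0.67) or NCA replicate 3 (-0.75). CASP8 was below the level tested, at 4.93 or less in the 8 libraries.

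Cell cycle genes moved little beside p21. Of 48 replication and G1/S genes, 4 were called higher and 5 lower (median 0.01), and neither count was steady. With 1 library left out the higher count was 2 without ASO2 replicate 1 or NCA replicate 2, and the lower count was 2 without ASO2 replicate 4 and 3 without ASO2 replicate 2 or 3 or NCA replicate 3. After rescaling to the same total 8 were called lower and the median was -0.03. Of 56 mitosis genes, 10 were called higher and 0 lower (median 0.06), a share near the 17.7% of all genes. That count moved between 4 and 16 when single libraries were left out, with 4 without NCA replicate 3 or 4, 5 without ASO2 replicate 1 or 2 or NCA replicate 2, and 16 without ASO2 replicate 3. CCNB1, the mitotic cyclin, rose by 0.22, a call lost without ASO2 replicate 1 or 2 or NCA replicate 2, 3 or 4 (0.16 to 0.21), and CDK1 was at 1095 ± 58 under ASO2 and 1068 ± 24.6 under NCA (SD, n = 4; log2 fold change 0.03, limma adjusted p 0.688). CCND1, the G1 cyclin, was at 9590.4 ± 772 under ASO2 and 9668 ± 124 under NCA (log2 fold change -0.01, limma adjusted p 0.87). CDKN2B, the inhibitor p15, was at 17.5, 15.1, 19.8 and 14.9 under ASO2 and 1.18, 7.4, 2.2 and 5.51 under NCA. It reached the mean of 10 needed for testing only through the ASO2 libraries.

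Heat shock genes rose almost as a block. These chaperones refold damaged proteins, and HSF1 drives many of them. Of 36 tested, 33 were called higher and 0 lower (median 0.34). HSPA6, an HSP70 gene with little activity in unstressed cells, was at 40.3, 51.8, 38.6 and 52.6 under ASO2 and 7.08, 16, 4.39 and 9.19 under NCA. All ASO2 libraries lay above all NCA libraries (log2 fold change 2.31, limma adjusted p 9.64e-07). The NCA libraries other than replicate 2 were below 10, so HSPA6 entered the test largely through ASO2. DNAJB1, the HSP40 partner of HSP70, was at 1165, 1446, 1503 and 1516 under ASO2 and 552, 677, 669.9 and 699 under NCA (log2 fold change 1.11). HSPH1 rose by 0.80, the collagen chaperone gene SERPINH1 by 0.84 and BAG3 by 0.73. HSPA1B rose by 1.26, but its near-identical copy HSPA1A was at 6.86 or less, so the split of reads between them and with HSPA6 is uncertain. HSF1 itself rose by 0.24.

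The promoters of some of these genes hold the element that HSF1 binds. In the 250 bases before the start, an extended element, in which 1 more such unit follows the core GAANNTTC after 2 free bases, searched on both strands, was found in 5 of 32 heat shock promoters with a sequence (15.6%) and in 0.285% of 11211 promoters of tested genes. The core alone, which lies inside it, was found in 28.1% and 3.89%. The stretches below show that element in capitals with 12 flanking bases (RefSeq, GRCh38.p14, each on the strand of its gene), because these 5 genes rose.
HSPA6 (chr1:161524454-161524490, + strand): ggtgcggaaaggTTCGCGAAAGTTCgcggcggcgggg
SERPINH1 (chr11:75562165-75562201, + strand): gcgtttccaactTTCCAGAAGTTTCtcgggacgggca
CHORDC1 (chr11:90223085-90223121, - strand): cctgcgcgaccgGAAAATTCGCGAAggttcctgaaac
HSPA8 (chr11:123062167-123062203, - strand): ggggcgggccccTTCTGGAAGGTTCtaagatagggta
DNAJB6 (chr7:157336861-157336897, + strand): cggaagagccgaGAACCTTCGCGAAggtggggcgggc
A match describes the sequence and is not a measured binding site. The promoters of CHORDC1 and HSPA8 held further matches that are not shown in capitals. HSPA8, the constitutive HSP70, rose by 0.47, the HSP90 partner gene CHORDC1 by 0.51 and DNAJB6 by 0.35; these 3 were chosen for the match after their values were seen.

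Other protein quality genes rose with smaller steps. Of 37 proteasome subunit genes, 19 were called higher and 0 lower (median 0.19). ADRM1, the ubiquitin receptor of the proteasome, rose by 0.58 and PSMD2 by 0.31. In the unfolded protein response of the endoplasmic reticulum, 15 of 30 genes were called higher and 1 lower. HSPA5, the main chaperone there, was at 3549 ± 244 under ASO2 and 2785 ± 163 under NCA (SD, n = 4; log2 fold change 0.35), DNAJB9 rose by 0.58 and HSP90B1 by 0.30, while ATF6 was lower (-0.28).

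More targets of ATF4 and CHOP were called lower than higher. ATF4 is the transcription factor of the integrated stress response, and its targets make and import amino acids. Of 42 tested, 8 were called higher and 18 lower (median -0.20). The higher ones were led by GDF15, by PPP1R15A, the feedback phosphatase subunit (1.32), and by DDIT3, which encodes CHOP (1.00). Lower members included enzymes, transporters and hormones. PCK2, the mitochondrial PEP carboxykinase, was at 601, 527, 546 and 334 under ASO2 and 1103, 908, 904 and 863 under NCA (log2 fold change -0.94, limma adjusted p 1.86e-05), with no overlap. SLC7A11, the cystine transporter, was at 1255, 1199, 1384 and 807 under ASO2 and 2233, 2019, 1857 and 2017 under NCA (log2 fold change -0.83). FGF21 (-1.01) and STC2 (-1.24), which encode secreted hormones, were at 31.8 or less in every library; without ASO2 replicate 4 neither was called (-0.74 and -1.04), nor was FGF21 without NCA replicate 3 or 4 (-0.93 and -0.95). Without ASO2 replicate 4 the counts were 9 lower and 7 higher. ATF4 mRNA was at 2883 ± 263 under ASO2 and 2649.7 ± 374 under NCA (SD, n = 4; log2 fold change 0.13, limma adjusted p 0.251), and was called higher without NCA replicate 1 (0.22). Of 22 cytosolic tRNA synthetase genes, 2 were called higher and 7 lower, and 4 lower without ASO2 replicate 4 or NCA replicate 1. EPRS1, which charges glutamate and proline tRNAs, changed by -0.42.

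Immediate early genes, which answer growth factors and stress within minutes, had the highest share called higher of all lists and families counted. Of 29 tested, 27 were called higher and 0 lower (median 0.69). FOS, a partner in the AP-1 dimer, was at 76.3, 139, 128 and 141 under ASO2 and 38.9, 35.8, 57.1 and 50.5 under NCA. ASO2 replicate 1 was lowest among the ASO2 libraries and lay above every NCA library (log2 fold change 1.38, limma adjusted p 1.99e-05). EGR1, a zinc finger factor, was at 238, 352, 339.5 and 379 under ASO2 and 86.1, 127, 150.5 and 121 under NCA (log2 fold change 1.43). SGK1, a serum-induced kinase, rose by 1.60, FOSB by 1.40, IER3 by 1.25 and KLF4 by 1.08. The CArG box, bound by serum response factor, was found by name on both strands in the 250 bases before the start in 2 of 22 of these promoters (9.1%) and in 0.963% of all. The 2 promoters were those of EGR1 and SRF. Each held another box that is not shown, and 1 box of each is given here in capitals (RefSeq, GRCh38.p14, + strand).
EGR1 (chr5:138465384-138465417): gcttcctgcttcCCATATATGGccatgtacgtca
SRF (chr6:43171227-43171260): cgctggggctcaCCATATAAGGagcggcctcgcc
SRF, named for this match after its values were seen, rose by 0.38.

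Feedback regulators of the ERK pathway rose too, 8 of 18 against 1 lower. DUSP6, the phosphatase that inactivates ERK, was at 141, 121, 140.1 and 127 under ASO2 and 86.1, 72.8, 71.4 and 68 under NCA (log2 fold change 0.82, limma adjusted p 1.39e-05), with no overlap. The ETS factor gene ETV4 rose by 0.85, SPRY2 by 0.67 and SPRY4 by 0.66. ID genes, which encode inhibitors of helix-loop-helix factors and of differentiation, rose as a family. ID1 was at 179.8, 261, 254 and 257 under ASO2 and 44.8, 53, 52.7 and 57 under NCA (log2 fold change 2.17, standard error 0.116, limma adjusted p 2.82e-10). ID3 rose by 1.85, ID4 by 1.37 and ID2 by 0.90. Over the whole BMP and TGF-beta list, 13 of 32 were called higher and 6 lower. Of 28 Notch pathway genes, 6 were called higher and 4 lower (35.7%, near the 32.5% of all genes). HES1, a Notch target, was at 14, 16.9, 17.1 and 18.3 under ASO2 and 7.08, 2.47, 3.29 and 4.59 under NCA. It too reached the mean of 10 only through the ASO2 libraries. The ligand gene JAG1 rose by 0.93. NOTCH1 rose by 0.44.

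**Figure D2:**
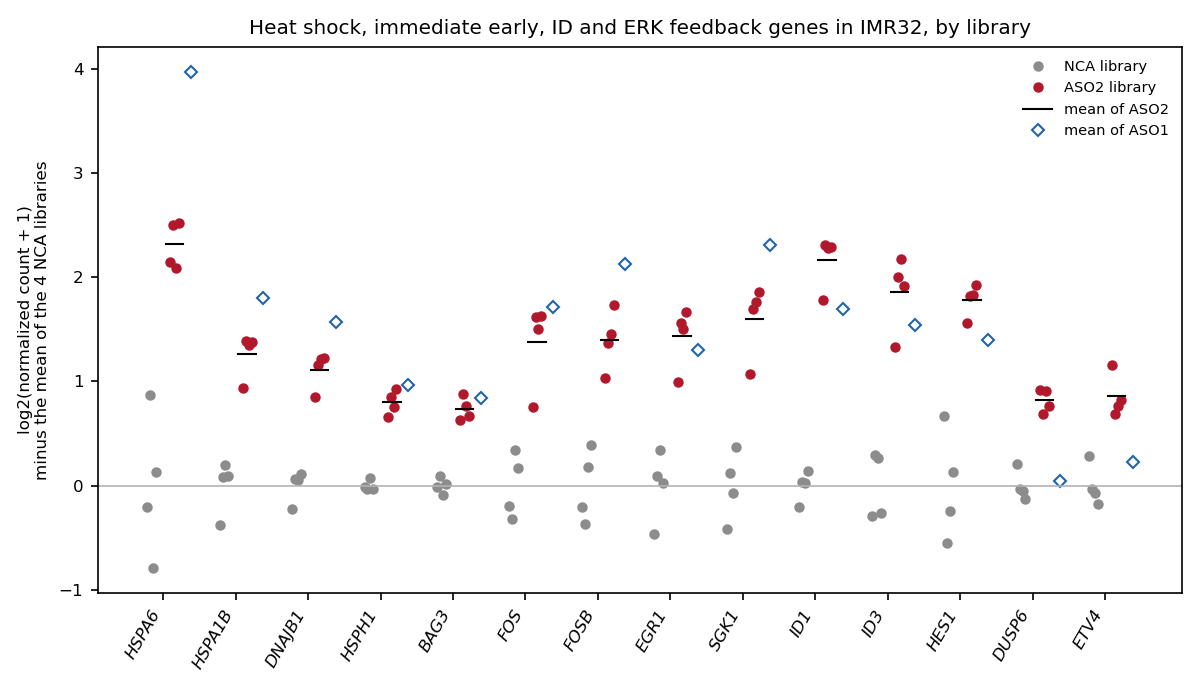
Each point is 1 library, as log2(normalized count + 1) minus the mean of the 4 NCA libraries (y axis), for heat shock, immediate early, ID, Notch and ERK feedback genes (x axis); black bars are ASO2 means and open diamonds ASO1 means. ASO2 replicate 1 is the lowest ASO2 point for several genes, among them FOS, SGK1, ID1, EGR1, DNAJB1, HSPA1B and HES1, but not for HSPA6 or DUSP6. No ASO2 point falls among the NCA points.

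Genes that build and feed the ribosome rose widely and by little. Of 80 cytosolic ribosomal protein genes, 54 were called higher and 0 lower, with log2 fold changes of up to 0.36 (median 0.21). RPS13 was at 1966, 1796, 1692 and 1801 under ASO2 and 1544, 1415, 1339 and 1343 under NCA (log2 fold change 0.36, limma adjusted p 0.000134). RPL3 was at 11199.6 ± 739 under ASO2 and 10086 ± 556 under NCA (SD, n = 4; log2 fold change 0.15, limma adjusted p 0.0645; called higher without NCA replicate 1, at 0.19). Reads shared with the many ribosomal protein pseudogenes make these levels uncertain. After rescaling every library to the same total, 51 were called higher and the median was 0.18. The start of 44 of 64 of these genes with a sequence (68.8%) held only C or T over its first 5 bases, beside 5.7% of all starts, as background for the pyrimidine tract that marks mRNAs of the translation machinery.

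Ribosome assembly genes rose as well. Of 64 genes of ribosome biogenesis and RNA polymerase I, 42 were called higher and 0 lower (median 0.20). RRN3, which recruits RNA polymerase I to ribosomal DNA, was at 1154, 1019, 941 and 998 under ASO2 and 689, 675, 718 and 756 under NCA (log2 fold change 0.53). PES1, which matures the large subunit, rose by 0.52 and BYSL, which matures the small one, by 0.42. Of 27 host genes of small nucleolar RNAs, 19 were called higher and 1 lower. SNHG8 was at 563, 613, 621 and 636 under ASO2 and 369, 379, 381 and 404 under NCA (log2 fold change 0.66), and GAS5 rose by 0.27. Of 45 initiation factor genes, 25 were called higher and 2 lower, with 16 higher without NCA replicate 2 and 14 without NCA replicate 4. EIF5 rose by 0.51 and EIF4A2 by 0.31. Splicing factors followed with 23 of 63 higher and 2 lower, led by SRSF8 (0.52) and PRPF6 (0.44).

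Glycolysis and hypoxia genes were called higher in 23 of 33 and lower in 1 (median 0.33). KDM3A, a histone demethylase induced by hypoxia, was at 1069, 1096, 1054 and 1187 under ASO2 and 708, 660.0, 692 and 676 under NCA (log2 fold change 0.69, limma adjusted p 1.01e-08). The glycolytic enzyme gene PGK1 rose by 0.42, and EGLN3, an oxygen sensor of the same pathway, by 0.65. Of 26 antioxidant genes driven by NRF2, 14 were called higher and 1 lower. NQO1, a quinone reductase, rose by 0.82. HMOX1, heme oxygenase, was at 54.4, 60.3, 37.7 and 61.7 under ASO2 and 36.6, 40.7, 37.3 and 47.8 under NCA (log2 fold change 0.37, limma adjusted p 0.0375), and at 446 ± 23.1 with ASO1. The ASO2 and NCA groups overlapped, and the call was lost after rescaling to the same total, in both count tests, and without any 1 of 6 libraries (ASO2 replicates 1, 2 and 4 and NCA replicates 1, 2 and 3, at 0.30 to 0.38). Respiratory chain genes of the nucleus were called higher in 18 of 77 and lower in 2 (26%, beside 32.5% of all genes). The higher count was 9 without ASO2 replicate 1, 8 without NCA replicate 2 and 10 without NCA replicate 3 or 4. SAT1, which breaks down polyamines, rose by 0.88 while ODC1, which makes them, rose by 0.25.

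Genes of cholesterol and fatty acid synthesis were either lower or not called. Of 35 genes, 0 were called higher and 14 lower, by at most 0.39 on the log2 scale (median -0.14). SREBF2, the transcription factor that drives sterol genes, was at 3069.8, 3092, 3121 and 2883 under ASO2 and 4094, 4029, 3699 and 3877 under NCA (log2 fold change -0.37, limma adjusted p 7.09e-06), and the groups did not overlap. FDFT1, squalene synthase, had a log2 fold change of -0.23.

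Among genes of neuronal function more members fell than rose. Of 43 synaptic vesicle and secretion genes, 2 were called higher and 26 lower (median -0.23). SV2B, a vesicle glycoprotein, was at 46.5, 34.8, 33.2 and 44.6 under ASO2 and 96.7, 96.2, 89 and 73.5 under NCA (log2 fold change -1.15, limma adjusted p 8.81e-06), with no overlap. PCLO, the active zone scaffold, changed by -0.60, SNAP25 by -0.27 and the calcium sensor gene SYT1 by -0.28. RAB3A (0.36) and SYT4 (0.27), the latter chosen after its values were seen, were the 2 called higher.

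Ion channels followed. Of 52 potassium channel genes named KCN, 1 was called higher and 24 lower (median -0.31). KCNH8 was at 287, 275, 342 and 335 under ASO2 and 520.3, 488, 555 and 482 under NCA (log2 fold change -0.73, limma adjusted p 6.03e-07). Of 22 calcium and sodium channel genes, 9 were called lower and 1 higher. CACNA1B, the N-type calcium channel, was at 2141, 2449, 2741 and 2340.3 under ASO2 and 3136, 3682, 3778 and 3649 under NCA, and all ASO2 libraries lay below all NCA libraries (log2 fold change -0.56). Glutamate and GABA receptor genes were lower in 10 of 29 and higher in 2, with GRIK2 at -0.63.

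Adhesion and guidance genes were lower in part. Of 43 synaptic adhesion genes, 14 were called lower and 3 higher (1 without ASO2 replicate 4). NLGN1, a postsynaptic adhesion protein gene, changed by -0.34. SLITRK6 was one of those that rose, at 21.9, 33.9, 26.9 and 45.7 under ASO2 and 7.08, 1.23, 5.49 and 1.84 under NCA. Of 40 semaphorin, plexin, netrin, slit and robo genes, 17 were called lower and 5 higher. The repellent gene SLIT1 changed by -0.65, and SEMA3D rose by 1.34. Of 30 neuronal RNA-binding protein genes, 11 were called lower and 3 higher. SRRM4, which drives neural microexon splicing, was at 1626 ± 80.8 under ASO2 and 2230.1 ± 128 under NCA (SD, n = 4; log2 fold change -0.46, limma adjusted p 4.87e-06). MAPT, which encodes tau, changed by -0.65.

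Receptor kinases and transmitter genes fell in part. Of 26 receptor kinase and neurotrophin receptor genes, 11 were called lower and 3 higher. ALK, a receptor often altered in neuroblastoma, was at 1023, 1001, 1024 and 943 under ASO2 and 1149, 1205, 1329 and 1278 under NCA (log2 fold change -0.31, limma adjusted p 0.00034). NGFR changed by -0.59 and NTRK3 by -0.58. Of 21 catecholamine genes, 7 were called lower and 2 higher, with DBH, which makes noradrenaline, at -0.24.

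Adrenergic core factors were called about as often as all genes. Of 26 tested factors, 3 were called higher and 5 lower (30.8%, beside 32.5% of all genes). Their log2 fold changes ran from -0.57 to 0.64 (median -0.02), and 8 were lower after rescaling to the same total. HAND2 was at 9674 ± 193 under ASO2 and 9902 ± 163 under NCA (SD, n = 4; log2 fold change -0.03, limma adjusted p 0.567). PHOX2A was lower (-0.38) and TBX2 higher (0.43). On the mesenchymal list, 10 of 29 were called higher and 2 lower (41.4%, median 0.02). The higher ones included SOX9 (0.97), VIM (0.49) and CCN1 (0.72). YAP1 was at 48.4 ± 11.2 under ASO2 and 40.9 ± 6.86 under NCA (SD, n = 4; limma adjusted p 0.414). The 10 mesenchymal markers had 1 called higher and 1 lower, and their sum was lower with ASO2. Among them TWIST1 was at 1580 to 1830 under ASO2 and 1960 to 2140 under NCA, and SNAI2 at 36 to 53.7 and 11.8 to 23.

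**Figure D3:**
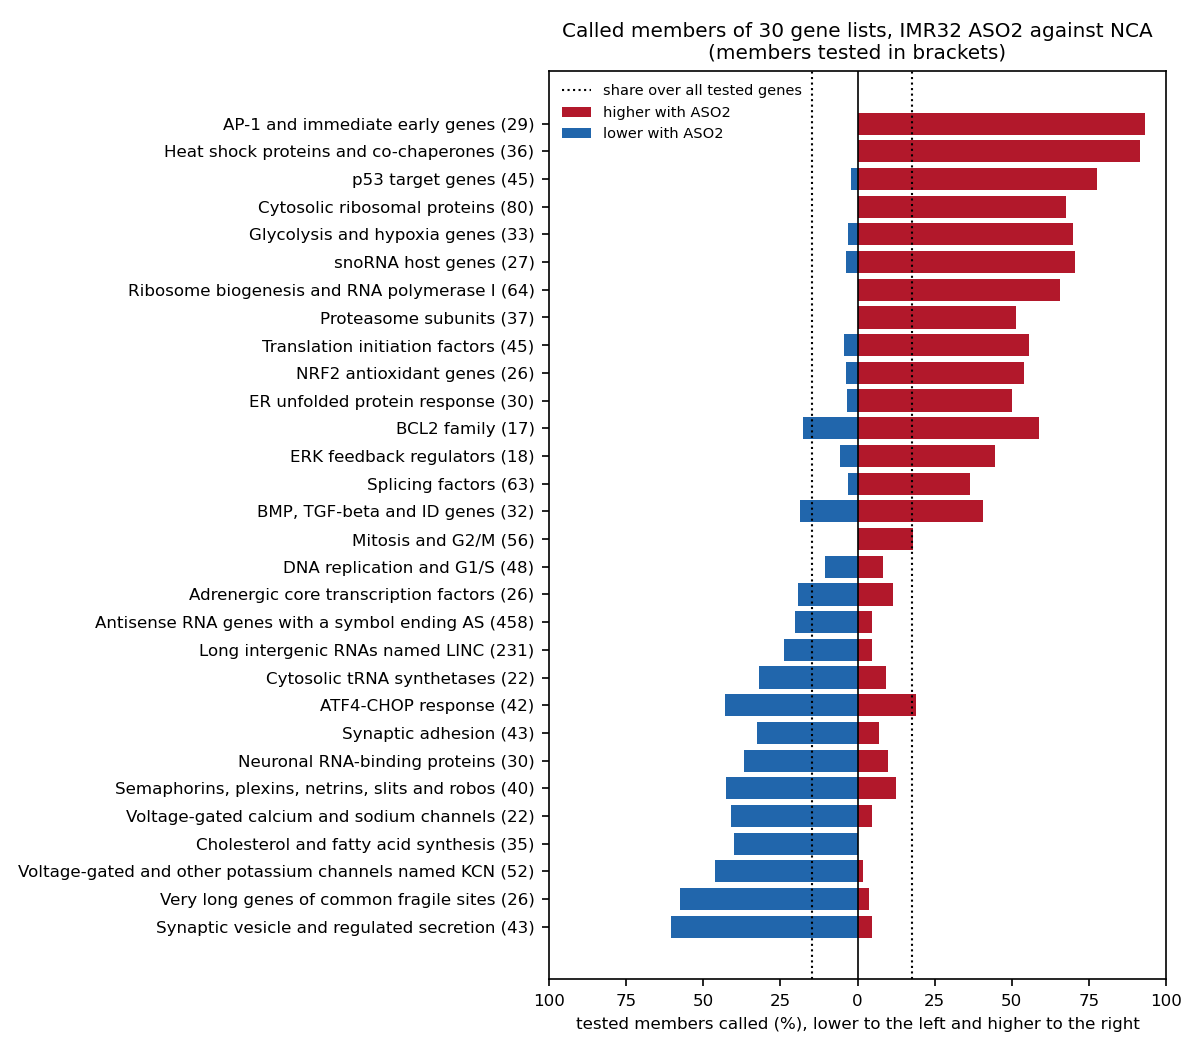
Bars give the percent of tested members of each list called lower (left) and higher (right) with ASO2 against NCA in IMR32; dotted lines mark the shares over all genes, 14.8% and 17.7%. Immediate early genes have 27 of 29 members higher, and synaptic vesicle genes have 26 of 43 lower.

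Repair genes were called about as often as all genes, and chromatin genes more often (29.5% and 46.3%, beside 32.5% of all genes). Of 44 genes of double-strand break and Fanconi repair, 10 were called lower (16 once libraries were rescaled) and 3 higher (5 without NCA replicate 1). FANCL, the ubiquitin ligase of the Fanconi pathway, was at 2360.3, 2349, 2568 and 2585 under ASO2 and 3154, 3439, 3245 and 3546 under NCA, and no ASO2 library reached the NCA libraries (log2 fold change -0.44, limma adjusted p 5.17e-06). BRCA1 changed by -0.18, while the end-joining factor gene NHEJ1 rose by 0.38 and RNF168, a ligase that marks broken DNA, by 0.27. Of 54 chromatin genes, 22 were called higher and 3 lower (6 without NCA replicate 1 or after rescaling to the same total), with the remodeller gene CHD2 at 0.46 and CHD5 at -0.30, a call lost without ASO2 replicate 1 (-0.25) or NCA replicate 4 (-0.24). Of 54 genes of transcription elongation and termination, 19 were called higher and 4 lower (7 once libraries were rescaled). HEXIM1, which holds the elongation kinase P-TEFb inactive, was at 761, 895, 889 and 866 under ASO2 and 462, 499.6, 532 and 491 under NCA, with the groups far apart (log2 fold change 0.78, limma adjusted p 1.35e-07). Its relative HEXIM2 rose by 0.71, and CCNK, a cyclin of elongation kinases, was lower (-0.30).

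Surface and matrix genes went in both directions. Of 18 ephrin and Eph receptor genes, which guide cells by contact, 7 were called higher and 3 lower. EPHB3 was at 183, 203, 201 and 224 under ASO2 and 101, 112, 93.4 and 108 under NCA, with no overlap (log2 fold change 0.96, limma adjusted p 2.07e-06). EPHA2 rose by 0.67 and the ligand gene EFNB1 by 0.61, while EPHA10 changed by -0.79. Of 41 matrix and integrin genes, 4 were called higher and 11 lower (17 once libraries were rescaled). In the main fit 36.6% were called, near the 32.5% of all genes. The integrin gene ITGA3 was at 32.5, 29.2, 34.1 and 29.7 under ASO2 and 54.3, 59.2, 65.9 and 53.3 under NCA (log2 fold change -0.87), ITGA6 changed by -0.67, and COL6A1, a chain of collagen VI, rose by 0.58. In the WNT pathway 9 of 36 genes were called higher and 7 lower (44.4%, beside 32.5% of all genes). DKK1, a secreted WNT antagonist and target, rose by 1.19, AXIN2, a feedback target, by 0.31, and the receptor gene FZD6 changed by -0.71. GD2 is the ganglioside that neuroblastoma antibodies bind. Its synthases B4GALNT1, at 981 ± 52.4 under ASO2 and 944 ± 21.9 under NCA, and ST8SIA1, at 180.2 ± 13.1 under ASO2 and 188 ± 25.8 under NCA (SD, n = 4), were not called, and the surface antigen CD276 (B7-H3) rose by 0.24 while NCAM1 changed by -0.28.

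Lysosome and autophagy genes were called higher in 12 and lower in 6 of 49 (36.7%, near the 32.5% of all genes). The autophagy receptor gene SQSTM1 rose by 0.39, the lysosomal transcription factor gene TFE3 by 0.51, and WIPI1, which acts in autophagosome formation, changed by -0.56. Of 50 replication-dependent histone genes, 10 were called higher (20%, near the 17.7% of all genes) and 0 lower. That count was 27 without NCA replicate 1 and 5 without NCA replicate 4, and reads shared between histone copies make single genes uncertain. Of 45 cytoskeleton and axon growth genes, 10 were called lower and 7 higher (37.8%, near the 32.5% of all genes). STMN2, a microtubule regulator of axons, was at -0.45 and the heavy neurofilament gene NEFH at 0.39.

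Long genes were more often called lower. Gene lengths came from GENCODE release 29 (GRCh38), matched by gene ID for 96.2% of tested genes, and run from first to last base of the gene, introns included. Among 2275 protein-coding genes of up to 10 kb, 659 were called higher and 105 lower (median log2 fold change 0.12). Among 618 genes over 300 kb, 22 were called higher and 354 (57.3%) lower (median -0.25). The classes between lay in order, with medians of 0.07, 0.01 and -0.07. With ASO1 the medians of the first and last class were 0.09 and -0.35. Of 26 very long genes at common fragile sites, 15 were called lower and 1 higher. FHIT, a diadenosine hydrolase gene of such a site, was at 28.9, 22.6, 37.7 and 27.4 under ASO2 and 57.8, 51.8, 61.5 and 68 under NCA (log2 fold change -1.03, limma adjusted p 0.00017). Neuronal lists hold many long genes, and the part of length in their falls was not tested.

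**Figure D4:**
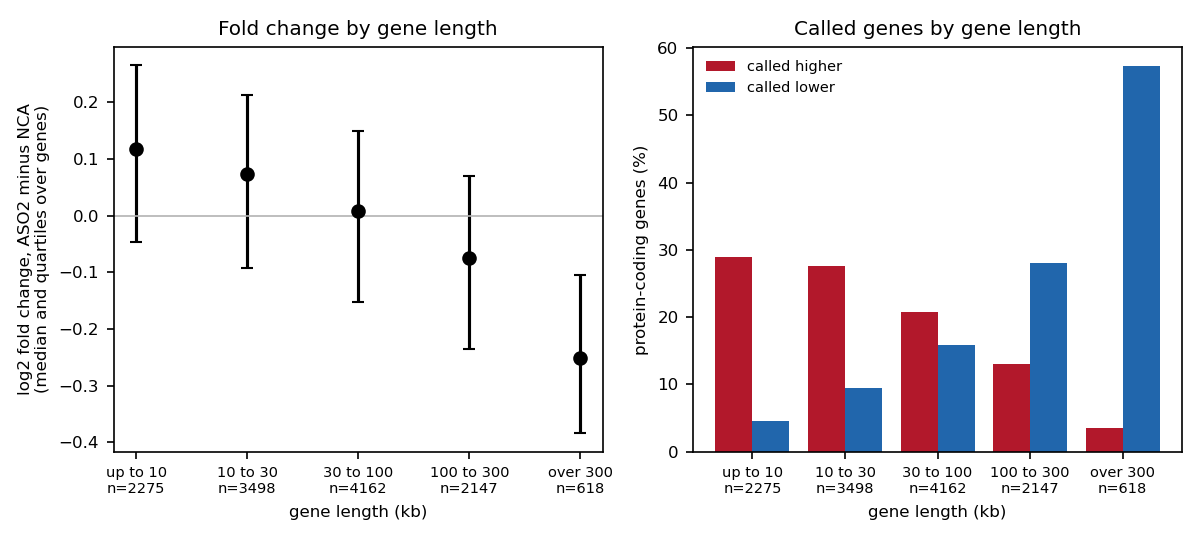
Left, the median log2 fold change of ASO2 against NCA with quartiles over genes (y axis) for protein-coding genes in 5 classes of length in kb (x axis); right, the percent of each class called higher or lower. The share called lower goes from 4.62% in the shortest class to 57.3% in the longest.

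Long non-coding genes were called higher less often than protein-coding genes, and lower about as often. Of 2281 tested, 119 were called higher (5.22%) and 355 lower (15.6%), with a median of -0.12. Of 12700 protein-coding genes, 2792 (22.0%) were called higher and 2053 (16.2%) lower. Of 231 genes named LINC, 55 were called lower and 11 higher (28.6% called, beside 32.5% of all genes). The higher count was 7 without ASO2 replicate 3 or 4. Of 458 antisense RNA genes, 93 were called lower and 22 higher (25.1% called). Here the higher count was 13 without ASO2 replicate 3. Whether counting used strand is not given in the sources used here, so reads of an antisense gene and its partner cannot be told apart. CCDC18-AS1 was at 156, 164, 185 and 170.3 under ASO2 and 298, 334, 299 and 333 under NCA (log2 fold change -0.90). Imprinted genes, expressed from 1 parental copy, split, with 5 called higher and 10 lower of 24. The neighbours H19, a non-coding RNA, and IGF2, a fetal growth factor, both rose. H19 was at 559.6, 518, 495 and 448 under ASO2 and 227, 228, 193 and 204 under NCA (log2 fold change 1.24, limma adjusted p 2.12e-09), IGF2 rose by 1.32, and MEG3 of another cluster was lower (-0.33).

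Among families taken by symbol, ZNF genes were called higher in 137 of 457 and lower in 41 (38.9%, beside 32.5% of all genes, median 0.07). ZNF750, an epidermal differentiation factor, was at 39.5, 46.1, 43.1 and 53.7 under ASO2 and 2.36, 3.7, 5.49 and 2.76 under NCA. Every ASO2 library was several times above every NCA library, with few reads in NCA. Solute carriers were lower in 56 of 223 and higher in 33 (39.9%, median -0.08). The higher ones were led by SLC12A4, a potassium chloride cotransporter, at 33.3, 55.6, 43.1 and 49.1 under ASO2 and 0, 3.7, 5.49 and 3.67 under NCA. Of 40 clustered protocadherin genes, limma called 0 higher and 0 lower, edgeR also called 0, and 1 had an unadjusted p under 0.05. Cilia genes were lower in 17 of 52 and higher in 4 (40.4%). The clock gene PER1 rose by 0.68 and PER2 by 0.63, within a clock list of 9 higher and 3 lower of 21.

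Innate immune genes that could be tested were called about as often as all genes. Of 41 interferon and nucleic acid sensing genes measured, 18 passed the level tested. Of these, 4 were called higher and 1 lower (27.8%, beside 32.5% of all genes). IFIT1 was at 3.77 or less in every library. IFI35 was at 19.3, 21.7, 25.2 and 26.3 under ASO2 and 9.44, 9.87, 4.39 and 6.43 under NCA, and MAVS, the adaptor of RNA sensing, was lower (-0.40). Of 10 inflammatory genes tested, 3 were called higher and 0 lower (30%), with NFKBIA at 0.33, and CXCL8 was at 0 in all 8 libraries. RNASEH1, the nuclease that acts with such oligonucleotides, was at 603 ± 99.5 under ASO2 and 537 ± 35 under NCA (SD, n = 4; log2 fold change 0.16, limma adjusted p 0.194).

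ASO2 was set against ASO1 directly, because both comparisons with NCA use the same control libraries. Of the 17245 genes, 3787 differed (22%), 2221 higher (12.9%) and 1566 lower (9.08%) with ASO2. After rescaling to the same total the split was 1591 higher and 2318 lower. p53 targets stood on the ASO2 side, with 29 of 45 higher than with ASO1 and 1 lower. MDM2 was at 2928 ± 121 with ASO1 (SD, n = 4; log2 fold change of ASO2 against ASO1 0.91, limma adjusted p 2.07e-11). FAS differed by 1.02, NECTIN4 by 2.70 and GDF15 by 2.17 in the same direction, and PLK2 by 0.34, while SERTAD1 did not pass (-0.15, limma adjusted p 0.595).

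Of 36 heat shock genes, 5 were higher with ASO2 than with ASO1 and 7 lower, and of 29 immediate early genes 2 and 7, beside the 12.9% and 9.08% of all genes. HSPA6 was lower with ASO2 (log2 fold change -1.66, limma adjusted p 5.91e-05). So was HMOX1 (log2 fold change -3.06, limma adjusted p 1.04e-11). Ribosomal protein genes were higher with ASO2 in 31 and lower in 0, and sterol and fatty acid genes higher in 1 and lower in 18. Fragile-site genes were higher in 6 and lower in 0, and synaptic vesicle genes in 5 and 5. Antisense RNA genes were higher in 11 and lower in 60. MMP2, a matrix protease, was higher with ASO2 by 1.38 and the chromatin regulator gene ANKRD11 by 0.88, while CHGB, a granin of secretory vesicles, differed by -0.96 and the G protein regulator gene RGS4 by -1.14.

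ASO2 was also transfected into NGP and SK-N-BE(2)c, each with its own NCA libraries and tested within its own table, so levels were not set across lines. The column names in both lines spell the control of replicate 1 differently from that of replicates 2 and 3, although the titles name all of them NCA. Differences between lines were not tested. In NGP 8383 of 14114 genes were called (59.4%; 30.8% higher and 28.6% lower; once rescaled, 3588 genes were higher and 4670 lower) and in SK-N-BE(2)c 9007 of 13307 (67.7%; 33.8% higher and 33.8% lower), where rescaling moved the split from 4504 higher and 4503 lower to 3465 and 5595 and the median of all genes from -0.02 to -0.15. p53 targets were higher in 32 and lower in 2 of 42 in NGP. SK-N-BE(2)c had 20 higher and 6 lower of 36. The log2 fold change of MDM2 was 1.02 in NGP (limma adjusted p 2.14e-15), while SK-N-BE(2)c had 0.29 (limma adjusted p 0.000239). That of CDKN1A was 1.44 in NGP (limma adjusted p 9.16e-15), while SK-N-BE(2)c had 0.46 (limma adjusted p 0.0316).

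For ATF4 and CHOP targets the medians in these lines had the opposite sign. NGP had 34 of 41 called higher and 6 lower, SK-N-BE(2)c 30 of 41 higher and 9 lower, with medians of 0.74 and 0.56 beside -0.20 in IMR32. The log2 fold change of SLC7A11 was 1.20 in NGP (limma adjusted p 9.61e-11). In SK-N-BE(2)c it was -0.13 (limma adjusted p 0.259). Heat shock genes had medians of 0.18 and 0.39, immediate early genes of 0.80 and 0.89, and synaptic vesicle genes of -0.40 and -0.37. For ID1 the values were 0.41 (limma adjusted p 4.73e-05) and 0.12 (limma adjusted p 0.0787).

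**Figure D5:**
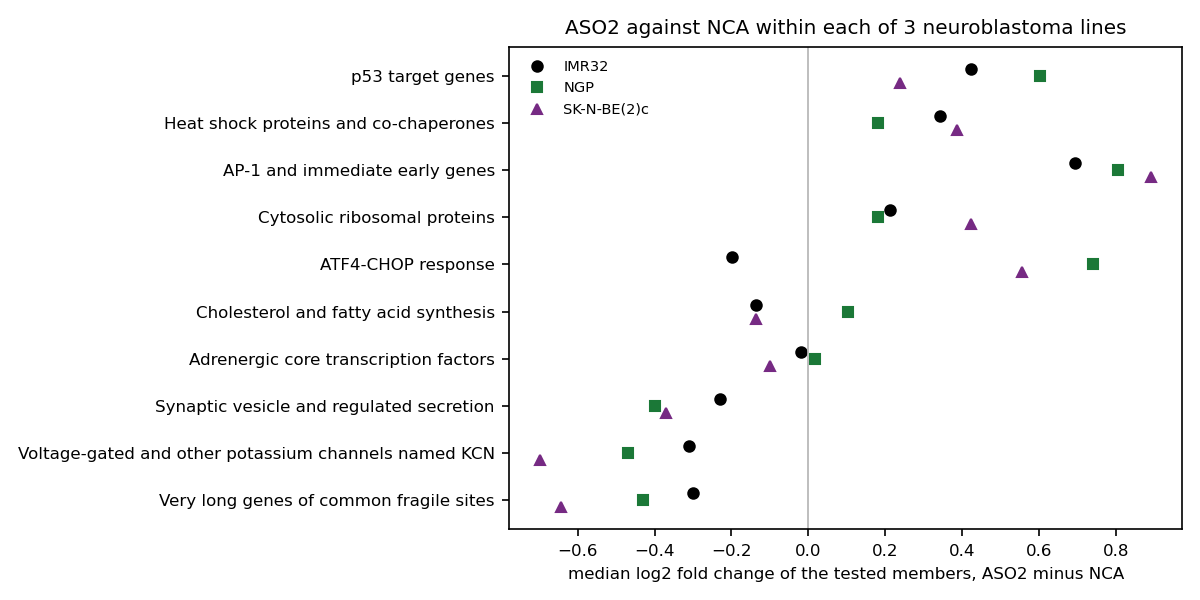
Symbols give the median log2 fold change of ASO2 against NCA (x axis) over the tested members of 10 lists (y axis), within IMR32, NGP and SK-N-BE(2)c. The ATF4-CHOP list lies at -0.20 in IMR32 and at 0.74 and 0.56 in the other lines.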

How the data were processed

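RNA of 30 libraries was sequenced after transfection, and the 8 libraries of IMR32 with ASO2 or NCA are described here. The deposited values are normalized counts, a signal that the authors made by dividing reads per gene by a size factor for each library. Per the submitters' processing notes the tools were FastQC 0.11.8, cutadapt 1.18, STAR 2.6.0, HTSeq 0.6.1 and DESeq2 1.42.0, with the builds hg19 and GRCh37. The library kit of each sample, the strand setting and the annotation are not given in the sources used here. For IMR32 the whole reads could be recovered, since 100% of nonzero values lay within 0.01 of a whole read. Of 62884 entries, 174 without an Ensembl gene ID (0.172% of values) were left out.

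Genes whose mean over the 8 libraries reached 10 entered limma 3.58.1 with a trended variance on log2(value + 1), with group means over the 12 IMR32 libraries and Benjamini-Hochberg adjustment over all genes tested. A gene was called at an adjusted p under 0.05. A fold change on this scale understates the change of low genes. The mean runs over both groups, so a gene can enter through the group where it is high. CDKN2B, HES1, SLITRK6, SLC12A4, ZNF750 and IFI35 were below 10 in every NCA library and entered through ASO2. That filter favours a gap between their groups, so the gap is no added support. ASO2 was also compared with ASO1, and with NCA within each of the other lines. Alternatives were other pseudocounts, filters, scalings, tests (edgeR 4.0.16 and DESeq2 1.42.0 on recovered reads), a replicate block and leaving out each library.

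Members and lists were chosen with earlier results of these data known. Genes named were the 12 largest rises and falls with a mean of at least 50 and groups that did not overlap, 2 anchors and up to 6 called members per list, up to 4 per family, the 3 smallest adjusted p per direction for ASO2 against ASO1, and LINC00682. Symbols were found for 99.9% of gene IDs. Promoters came from RefSeq (GRCh38.p14), a build other than that of the counts. Some named genes are not reported here.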

Additional observations from a re-analysis of the deposited data

Results flagged for a closer look

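Among the genes named, 342 groups of 4 libraries were examined for 1 library far from the other 3, and 17 (4.97%) had one; chance alone gives about 1 in 20. ASO2 replicate 1 was that library in 9 of them. It was lower than the other ASO2 libraries for ID1 (179.8, others 254 to 261), HSPA1B (614, others 817 to 840), NOTCH1 (1478, others 1742 to 1778), CYP4F3 (86.8, others 103 to 105), SLC4A5 (28.1, others 43.4 to 45.8), COL6A1 (1136), SQSTM1 (754) and B4GALNT1 (903), and higher for AXIN2 (436). NCA replicate 1 stood apart from the other NCA libraries for CCNB1 (1536) and RPL3 (10909.6), where it was high, and for MEG3 (4411), PCLO (1074) and SRRM4 (2039), where it was low. NCA replicate 2 was high for BBC3 (85.1), NCA replicate 3 was high for HSPH1 (2089), and ASO2 replicate 4 was low for MAVS (787).

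Some genes shifted in opposite directions with ASO2 in different lines, with no overlap between ASO2 and NCA libraries in either line. These differences between lines were not tested. STC2 had a log2 fold change of -1.24 in IMR32, beside 0.75 in SK-N-BE(2)c and 2.13 in NGP. SLC7A11 had -0.83 in IMR32 and 1.20 in NGP, and CHGB had -0.26 in IMR32, beside 0.43 in SK-N-BE(2)c and 0.29 in NGP. H19 had 1.24 in IMR32 and -0.17 in NGP. PRPF6 had 0.44 and -0.29, and SQSTM1 0.39 and -0.18, in the same lines. In SK-N-BE(2)c the values were -0.49 for GDF15 (1.67 in IMR32), -0.84 for EPHA2 (0.67), -0.34 for SEMA3D (1.34), -0.16 for EGLN3 (0.65) and -0.21 for TBX2 (0.43).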

How the results depend on the processing

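Of 3049 values of single genes named here under an alternative setting, 27 lost their call and 6 gained one. Another 2 were not called in either setting but moved by more than the replicate spread, and 3014 counted as the same. The count of reversals was 0, but direction was checked only for values called in the main or the alternative setting. Genes not called could change sign within the replicate spread, as CCND1 did (-0.063 to 0.027). The count of 5606 genes for ASO2 against NCA ran from 4545 to 5677 when 1 library was left out, and was 5638 with edgeR and 4946 with DESeq2. With a log2 fold change of 1 or more also required, 194 were left. Rescaling to the same total changed the split from 3047 higher and 2559 lower to 2645 and 3112 and moved the median of all genes to -0.03. The counts with 1 library left out ran from 2728 to 4425 for ASO2 against ASO1, from 8439 to 8634 in SK-N-BE(2)c, and from 7539 to 8195 in NGP.

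The labels do not say whether a replicate number marks a shared culture or day, so the number was left out of the main fit. Deviations of same-numbered ASO2 and NCA samples correlated at 0.265, -0.000312, 0.114 and 0.0285 for replicates 1 to 4. Samples of different number ran from -0.206 to 0.103. Shared structure is thus possible, most of all for replicate 1. With the replicate number as a block 7414 genes were called, 5660 for ASO2 against ASO1, 9165 in SK-N-BE(2)c and 8491 in NGP. With that block 36 replication-dependent histone genes were called higher in place of 10, 10 replication genes higher and 10 lower in place of 4 and 5, and 8 chromatin genes lower in place of 3. Several list counts of 4 or fewer moved by more than 1.5 times when 1 library was left out.

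Depth limits the low genes: CASP8, HSPA1A and IFIT1 had under 7 normalized counts in each library. They were below the level tested, so differences there were not tested in the main fit.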
